A study of Mus musculus with 199 samples.

Results

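Chromosome 3 is one of the large mouse autosomes, and here it stands for all 40 kb windows that the deposited table placed on it. The rule took every row assigned to chromosome 3, which gave 3990 windows of the 68162 in the table and of the 61816 on the 19 autosomes. The 2 windows of unplaced chromosome 3 sequence were not included. The other 18 autosomes, with 57826 windows, served as the comparison. The rule itself uses no measured value.

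The samples were libraries of genome architecture mapping (GAM) from the mouse embryonic stem cell line 46C, of strain 129/Ola, a Sox1-GFP knock-in line and so a single cell line. All 199 libraries are ones that did not pass the quality control of the study. In 186 of them, 4 nuclear profiles from 220 nm cryosections had been collected in each cap (4NP), and the rest were 11 water controls and 2 caps with 5 ng of human genomic DNA. Titles placed the libraries in 35 groups of 11 experiments.

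The cells of all groups were grown in the same way, in serum with LIF and then in serum-free medium before harvest. The 4NP groups differed in how sections or DNA were treated. The full collection had 34 libraries, whose sections were stained with 1% cresyl violet according to the protocol. The propidium iodide experiment had 21 stained, 21 stained and frozen and 1 unstained library. The titration of proteinase K had 7 libraries each at titled volumes of 1 (csc), 3, 4 and 8 µl (mdc), 2 at 1 µl (mdc) and 1 at 2 µl (mdc), 2 abbreviations whose meaning the labels leave out. The cresyl violet test, by its title, had 16 libraries titled crystal-violet and 5 unstained, and its protocol too names crystal violet. Eosin was used in ethanol for 8 libraries and in water for 8, with 1 unstained. SYBR Gold had 15 titled stained and 3 titled unstained. There the titles and the protocols disagree, since the libraries titled unstained carry the staining protocol, and titles are followed here. The small remaining groups were protocol_a (3) and protocol_c (3) of the reagent volumes, 20, 23 and 25 PCR cycles (2, 1 and 2), small and large kit (2 and 1), frozen early and late (1 and 2), and unfrozen or frozen after incubation (2 and 3).

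In GAM, a thin slice is cut through a nucleus, and the DNA in the slice is sequenced. Each chromosome occupies its own territory in the nucleus, so a slice catches some chromosomes along much of their length and misses others. Loci that are close in space tend to be caught in the same slice, and this co-segregation is what GAM measures. Nuclei are cut at random positions, so the chromosomes present differ from slice to slice.

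The name gene-poor was checked against the annotation of the same genome build. Chromosome 3 had the lowest GC content of the 19 autosomes, 40.4% against 40.9% to 43.8% in the others. Protein-coding genes overlapped 43.6% of its windows, also the lowest share, with 44.5% to 64.85% in the others. By starts of protein-coding genes per Mb, however, it was the fourth lowest, with 6.62 against 5.70 on chromosome 18, 5.81 on chromosome 12 and 6.28 on chromosome 1.

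The 4NP libraries called chromosome 3 windows unevenly. Each window was called in 8.43 of the 186 4NP libraries on average (median 8, range 0 to 25), and in the other autosomes in 8.90 (median 9). The central 200 bases of 4 chromosome 3 windows are shown because they carry the extremes of this range: the window called most often and 3 of the 5 that have no undetermined base and were never called. Sequence is of the plus strand of NCBIM37 (mm9), and capitals mark bases inside a 32-base word that has another exact copy on chromosome 3, on either strand.

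Called most often, chr3:8259901-8260100, no gene: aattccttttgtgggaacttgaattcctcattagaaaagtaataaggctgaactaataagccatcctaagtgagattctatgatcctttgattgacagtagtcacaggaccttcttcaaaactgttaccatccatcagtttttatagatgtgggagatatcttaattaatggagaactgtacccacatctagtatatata
Never called, chr3:13579901-13580100, no gene: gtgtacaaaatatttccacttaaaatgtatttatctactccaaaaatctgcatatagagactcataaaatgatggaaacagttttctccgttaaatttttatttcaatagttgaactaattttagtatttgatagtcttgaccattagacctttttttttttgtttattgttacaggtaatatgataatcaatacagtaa
Never called, chr3:98299901-98300100, in the window of Hsd3b4: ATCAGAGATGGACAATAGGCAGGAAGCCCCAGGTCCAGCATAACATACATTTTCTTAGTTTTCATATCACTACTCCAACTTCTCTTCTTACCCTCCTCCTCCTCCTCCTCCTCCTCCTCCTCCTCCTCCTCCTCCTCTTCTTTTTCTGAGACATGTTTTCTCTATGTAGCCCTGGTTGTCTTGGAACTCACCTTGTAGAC
Never called, chr3:113099901-113100100, in the window of Amy2a3 and Amy2a4: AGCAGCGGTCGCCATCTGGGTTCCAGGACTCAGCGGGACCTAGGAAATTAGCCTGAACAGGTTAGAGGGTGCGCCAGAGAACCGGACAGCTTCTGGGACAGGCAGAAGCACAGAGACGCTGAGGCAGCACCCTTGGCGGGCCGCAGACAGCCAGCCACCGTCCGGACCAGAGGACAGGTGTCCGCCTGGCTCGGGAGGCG

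None of these stretches overlapped an annotated exon or gene. The Hsd3b4 stretch had 1 further identical copy of all its 200 bases on chromosome 3, at chr3:98353366-98353565, and the amylase stretch had 3, the first at chr3:113067289-113067488. The most called stretch and the never called stretch without a gene had none. The stretches held 34.5%, 25%, 47% and 65% GC in the order shown.

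Parts of 2 duplicated gene clusters were among the windows never called. Of the 3990 windows, 83 were never called by a 4NP library, and these consisted on average of 93.0% undetermined bases. On the other autosomes 2302 of 57826 windows were never called, and 461 of the 55687 with no undetermined base. Among the 3898 windows of chromosome 3 with no undetermined base, 5 were never called. Of these 5, 2 neighbours at chr3:98280001-98360000 hold Hsd3b4, of the 3-beta-hydroxysteroid dehydrogenase gene family, and the predicted gene Gm10681. Another pair of neighbours at chr3:113080001-113160000 holds Amy2a2, Amy2a3 and Amy2a4, copies of the pancreatic amylase gene. In these 4 windows between 99.62% and 99.98% of 32-base words had another copy on chromosome 3, against a median of 8.51% over the complete windows. The fifth, at chr3:13560001-13600000, holds no annotated gene and had 8.83% such words. The next lowest complete windows had 1 call, so the step from inside to outside this set is a single library.

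Other members of both clusters were called. The window with the start of Amy2a5 (81.2% repeated words) was called in 6 libraries and that of Amy2b (20.3%) in 6, while the window shared by Amy2a1 and Amy2a2 (40.0%) was called in 1. Amy1, the salivary amylase gene at the end of the cluster, had 6.74% repeated words and 9 calls. Among the hydroxysteroid dehydrogenases, the windows of Hsd3b1, Hsd3b2, Hsd3b3, Hsd3b5 and Hsd3b6 had 17.9% to 33.7% repeated words and 9 to 15 calls. Within both clusters the complete windows at 0 calls were therefore those that are almost wholly duplicated. The window directly after the never called amylase pair also had 0 calls, but it holds undetermined bases and is not among the complete ones. Other repeated families differed. The 5 windows of Sirpb1 genes (55.2% to 73.1% repeated words) were called in 6 to 14 libraries and 6 windows of Vmn2r genes (62.4% to 86.3%) in 5 to 11. The window of Sprr2a2 and Sprr2a3 (99.2%) was called in 1 library, that of Tdpoz5 (89.3%) in 3 and that of Gm9116 (92.9%) in 4.

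**Figure D1:**
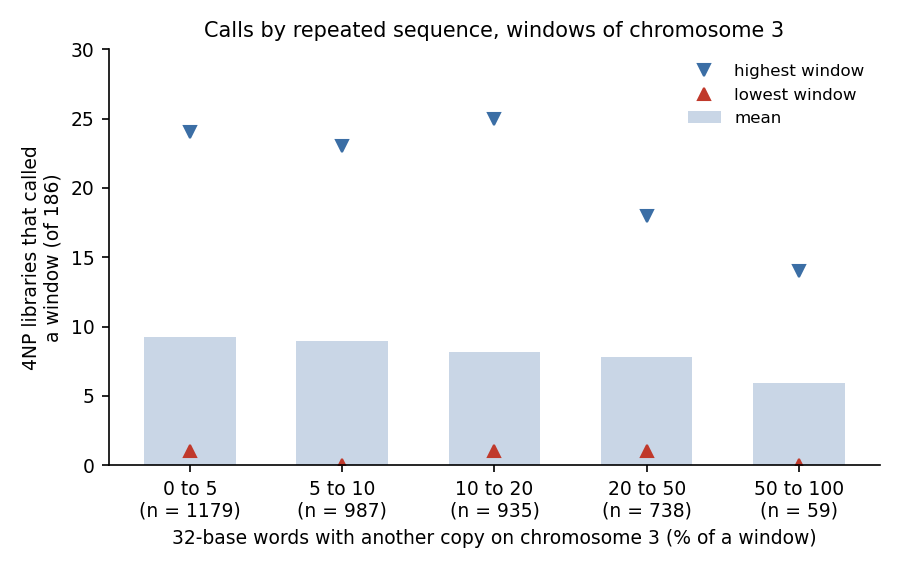
Number of 4NP libraries (of 186) that called a chromosome 3 window, against the share of its 32-base words with another copy on the chromosome; bars are means, triangles the highest and lowest window of each class, and n is the number of windows. The mean falls from 9.27 libraries in the least repeated class to 5.93 in the most repeated one.

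Over all complete windows of chromosome 3, calls were fewer where more of the sequence was repeated. The 1179 windows with under 5% repeated words were called in 9.27 libraries on average, and the 59 windows with 50% or more in 5.93. The classes between had 8.95, 8.16 and 7.82. GC content moved with the classes too, from 41.9% in the least repeated to 39.4% at 20% to 50% and 40.2% in the most repeated, and its part in the difference was not tested. Windows are not independent replicates, so this is given without a test, and copies on other chromosomes were not searched.

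The 5 windows called most often lay apart from each other. Window chr3:8240001-8280000, with no annotated gene, was called in 25 libraries. Window chr3:25400001-25440000, in an intron of Nlgn1, a postsynaptic adhesion gene, was called in 24. Window chr3:109280001-109320000 in Vav3, a guanine nucleotide exchange factor, was called in 23. Those with exons of Rap1a, a small GTPase, at chr3:105520001-105560000 and of Fnbp1l at chr3:122240001-122280000 were called in 21 each. Sixth in order came windows with 20 calls. The windows directly beside the first were called in 6 and 8 libraries, and those beside Vav3 in 10 and 10, so the high level was held by a single window. Beside the Nlgn1 window they were called in 3 and 18. The 9 water controls with few calls held no call in any of the 5, but their 53 calls on the whole chromosome are too few for this to be informative. Each of the 5 was called in 1 or both of the water controls with many calls. On the other autosomes 160 windows (0.277%) were called in more than 20 libraries, with a highest count of 139, and on chromosome 3 it was these 5 windows (0.125%).

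Gene families on chromosome 3 were read through the windows that hold their starts, and the median of all chromosome 3 windows was 8 libraries. Of the 780 windows with the start of a protein-coding gene, whose median was 9, 61.7% were above 8 and 27.8% below, and this is the background of the lists. Stem cell and signalling genes had a median of 10.5 over 12 windows, with 10 above and 1 below 8. Sox2, the pluripotency transcription factor, had the highest count of that list, and Spry1, an inhibitor of receptor tyrosine kinase signalling, had the lowest with 6. Housekeeping genes had a median of 11.5 over 14 windows, from 7 (Hspa4l, a heat shock protein, with Rap1a and Atp5f1) to 20 (Ilf2, a double-stranded RNA binding protein). The 6 windows of S100 calcium binding genes were all above 8, from 9 (S100a10) to 20 (S100a1). Ilf2 and S100a1 share a window. The 5 windows of the guanylate binding proteins, interferon-induced GTPases, had a median of 10, from 8 (Gbp7) to 13 (Gbp1). Both windows of the histone cluster 2 genes were above 8, with 9 (Hist2h2ab) and 11 (Hist2h2aa1).

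The epidermal differentiation complex, which encodes proteins of the cornified skin envelope, had 27 genes in 16 windows with a median of 6.5, from 3 (Crct1) to 10 (Lce1a1), and 10 of the 16 were below 8. Alcohol dehydrogenase genes had a median of 7.5 over 6 windows, from 4 (Adh7) to 11 (Adh1), and glutathione S-transferase mu genes a median of 8 over 5 windows, from 6 (Gstm6) to 9 (Gstm1). Of the long neuronal genes, whose introns span many windows, 11 of 12 were found on chromosome 3, with a median of 10, from 5 (Negr1 and Ntng1) to 19 (Rapgef2). Gbp6 and Naaladl2 were not placed by the annotation used here. GC content moved with these medians in part: it was 40.2% in the median window of the epidermal complex, 43.5% for the housekeeping genes and 43.2% for the stem cell genes, but 47.0% for the glutathione S-transferases. Its part was not tested, genes of a cluster share windows, and the medians are a description of the lists.

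Around Sox2 (chr3:34548927-34551383) the calls fell off within 1 window. Its own window, chr3:34520001-34560000, was called in 20 of 186 libraries, the next one downstream in 13 and the one upstream in 6. Of the 10 windows within 200 kb on both sides, counts ran from 6 to 13. Windows 40 kb upstream and downstream shared 4 and 7 of their libraries with the Sox2 window, a normalized linkage (D′) of 0.627 and 0.483. At 200 kb it was 0.440 upstream and 0.185 downstream. These values rest on few libraries and are given as a description.

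Windows of chromosome 3 that overlap a protein-coding gene were called more often than those that do not. In the 144 4NP libraries with at least 200 called autosomal windows, the share of windows called was 0.877 ± 0.185 percentage points higher in the 1733 windows with a gene than in the 2165 without (SE over libraries), and it was higher in 101 of the 144. A two-sided sign-flip permutation test gave p = 1e-05, the smallest that its 100000 resamples can give (adjusted over 6 tests, 1.5e-05). The other autosomes differed by 0.857 ± 0.0791. Chromosome 3 minus the others was 0.0198 ± 0.196, which did not pass the permutation test (p = 0.921). Genic windows were also richer in GC, with 41.9% against 39.3%.

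GC content divided the chromosome in a similar way. Windows at or above its median of 40.0% GC were called in 9.35 of the 186 libraries and those below in 7.85, a ratio of 1.19 ± 0.0377 (jackknife SE over libraries). Per library the difference was 1.04 ± 0.200 percentage points (higher in 93 of 144, permutation p = 1e-05, adjusted 1.5e-05). The other autosomes, split at the same GC content, gave a ratio of 1.19 ± 0.0177. The difference of chromosome 3 from the others, -0.0498 ± 0.200 percentage points, did not pass the test (permutation p = 0.802). Within single experiments the GC difference ran from 0.0154 to 1.80 percentage points and the gene difference from 0.312 to 1.39, and the GC difference had an unadjusted permutation p below 0.05 in 2 of the 6 experiments with 6 or more libraries.

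Within GC classes the chromosome tracked the rest of the genome. At 36% to 38% GC, its windows were called in 7.65 libraries and those of the other autosomes in 7.98, and at 44% to 46% in 10.1 and 10.0. Over the 9 classes from 34% GC upward, the ratio lay between 0.935 ± 0.0836 and 1.02 ± 0.0776, each within 1 jackknife SE of 1. The composition differed: 22.1% of its complete windows had 36% to 38% GC against 13.97% elsewhere, and 0.513% had at least 50% GC against 4.37%.

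Bins of 5 Mb gave the course along the chromosome. The highest was at 95 to 100 Mb, with 1.27 ± 0.124 times the calls of the mean autosomal window, 43.5% GC and 98 starts of protein-coding genes. The bin at 85 to 90 Mb followed with 1.23 ± 0.110, 45.1% GC and 112 gene starts. Between them, the bin with the most gene starts, 131 at 90 to 95 Mb, had 0.971 ± 0.114 and 41.6% GC. The lowest was the first, at 0 to 5 Mb, with 0.322 ± 0.0544, of which 60.0% of bases are undetermined. Next came 110 to 115 Mb with 0.725 ± 0.103, 36.9% GC and 10 gene starts, and 70 to 75 Mb with 0.791 ± 0.113, 36.7% GC and 4 gene starts.

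Of the 32 bins, 2 were low and 2 high by more than 2 jackknife SE. Over the 494 such bins of the 19 autosomes 9.72% were low and 6.88% high by this rule, so the numbers on chromosome 3 were near the background. Across the 31 bins with under 10% undetermined bases the level correlated with GC content (Pearson's r = 0.67, Spearman's rho = 0.60) and with gene starts (rho = 0.54). In the 436 bins of the other autosomes these were 0.54, 0.55 and 0.45. Bins share libraries and are not independent, so the correlations are a description.

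**Figure D2:**
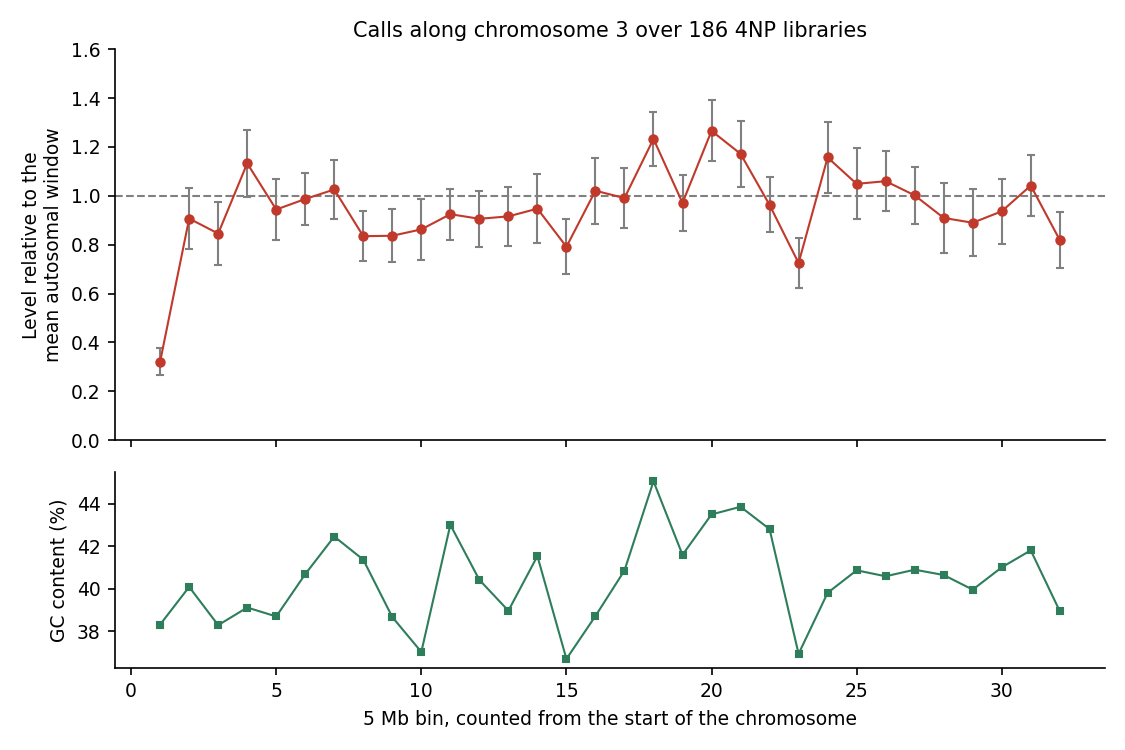
Upper panel: calls per 5 Mb bin of chromosome 3 relative to the mean autosomal window, over 186 4NP libraries, with jackknife SE over libraries and a dashed line at 1; lower panel: GC content (%) of each bin. The bins run from 0.322 in the first to 1.27 in the 20th, and the 23rd, at 0.725, is the lowest of the rest.

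As a whole chromosome, its share of calls was close to that of the rest of the genome on average and far from it in single libraries. Relative coverage is the share of chromosome 3 windows called, divided by the share of the other autosomes' windows called, in each library. In the 144 libraries with at least 200 called autosomal windows, chromosome 3 windows were called at a median of 2.77% (0% to 31.98%) and those of the other autosomes at 4.64% (0.306% to 28.6%). Relative coverage was 0.989 ± 0.720 (SD, n = 144), with a median of 0.875 and a range from 0 to 4.91. It did not differ from 1 beyond the spread between libraries (sign-flip permutation test, p = 0.865, adjusted over the 19 autosomes 0.905). As a mean log2 ratio, with 0.5 of a call added to each count, it was -0.57 and passed (permutation p = 5e-05, the smallest that its 20000 resamples can give, adjusted 0.000136), as did 17 of 19 autosomes (89.5%). By the mean of the ratios, at the same threshold of 0.05, 2 of 19 autosomes were called (10.5%), chromosome 2 with 1.22 and chromosome 11 with 1.24. Summed over all libraries, the ratio was 0.947 ± 0.0657 (jackknife SE).

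**Figure D3:**
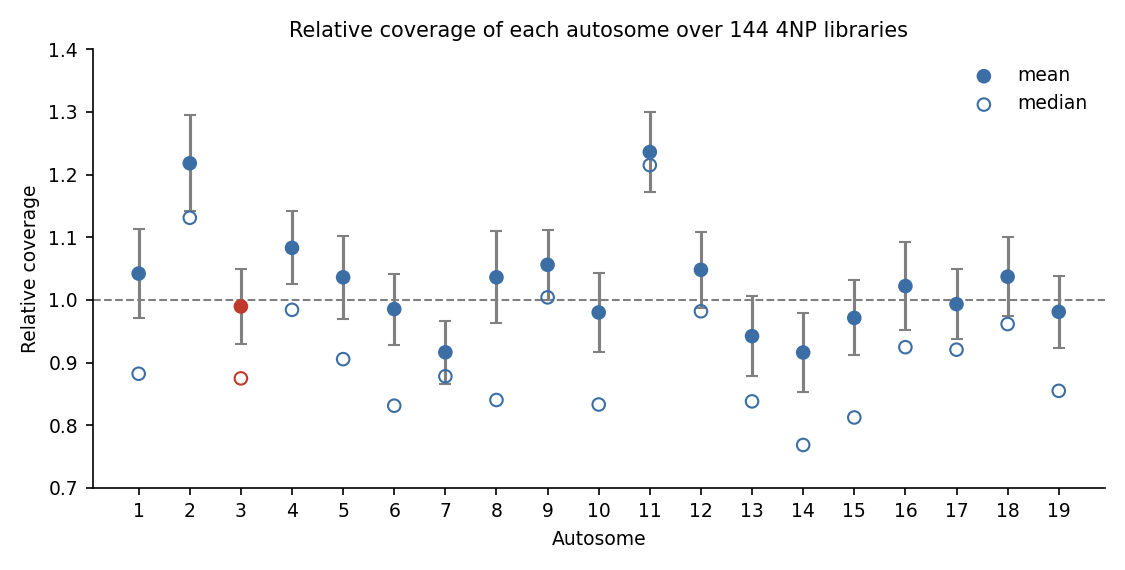
Relative coverage of each of the 19 autosomes over 144 4NP libraries; filled points are means with SE over libraries, open points medians, chromosome 3 is in red and the dashed line is 1. Chromosome 3 has a mean of 0.989 and a median of 0.875, and the means of the others run from 0.916 to 1.24; the axis does not start at 0.

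Single libraries varied widely. Relative coverage was between 0.5 and 2 in 98 of the 144 libraries, under 0.5 in 32 and above 2 in 14, and 2 libraries had no call on chromosome 3 at all. On the other autosomes 24 to 47 libraries were under 0.5 (median 34.5) and 7 to 23 above 2 (median 13), so the counts were near the background. Around the share of chromosome 3 windows called in a library, a Wilson 95% interval was set. The share of the other autosomes lay above this interval in 62 libraries, below it in 45 and inside it in 37. For the other autosomes, taken in the same way, the share of the rest was outside the interval in 66.0% to 81.9% of libraries, and on chromosome 3 in 74.3%. The interval covers counting error only, because neighbouring windows are caught together. The SD of relative coverage, 0.720, was the eighth smallest of the 19 autosomes (0.605 to 0.922).

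The longest stretch of chromosome 3 without a call was 22.6 Mb in the median library, with a range from 3.08 Mb to 160 Mb, the whole chromosome. In 87 of the 144 libraries it was over 20 Mb. On the other autosomes the median longest gap was 14.9 to 26.3 Mb, and 44 to 89 of the 144 libraries had one over 20 Mb. Undetermined bases, which make up 60.0% of the first 5 Mb of chromosome 3, can hold no call and count as gap here. The chromosome was also divided in the middle. Relative coverage of its last 1995 windows was 1.064 on average and that of its first 1995 windows 0.9145, a difference that did not pass adjustment (higher in 82 of 144, permutation p = 0.0457, adjusted 0.117). On 6 of the 19 autosomes (31.6%) such a difference did. The undetermined bases of the first 5 Mb lie in the first 1995 windows and were not set aside.

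**Figure D4:**
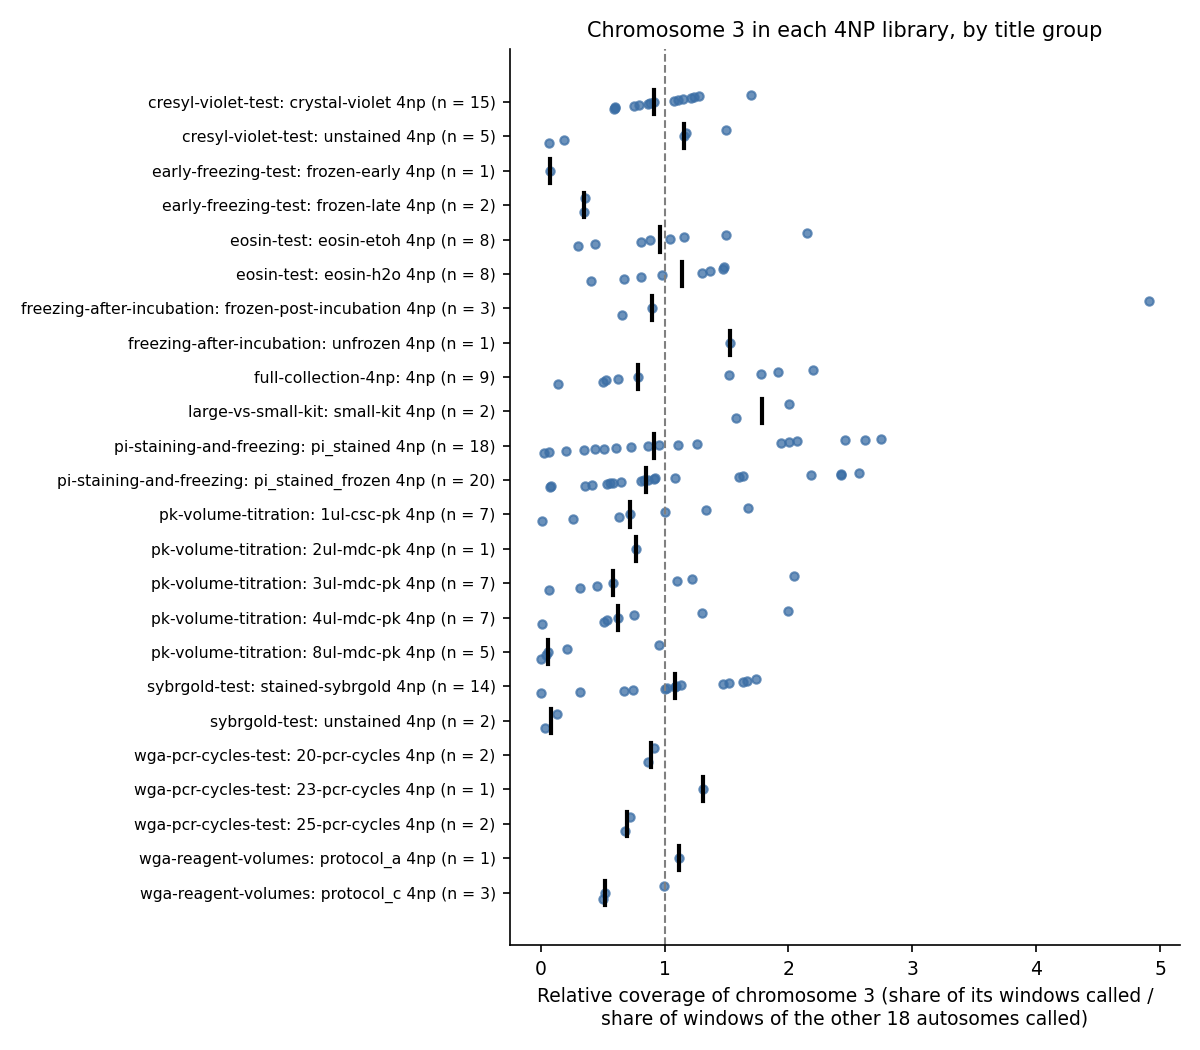
Relative coverage of chromosome 3 in each of the 144 4NP libraries with at least 200 called autosomal windows; each point is a library, the black bar is the group median, n is the number of libraries and the dashed line is 1. Of the 12 groups with 5 or more libraries all but 1 reach both sides of 1; the 5 libraries at 8 µl proteinase K lie at 0 to 0.954, and the crystal violet libraries lie between 0.590 and 1.69.

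By title group, the spread was wide in nearly all. Of the 12 groups with 5 or more libraries, the SD was smallest with crystal violet (0.307), followed by 8 µl proteinase K (0.3995) and eosin in water (0.402). The 18 propidium iodide libraries ran from 0.0277 to 2.75 with a median of 0.911, and the 20 stained and frozen ones from 0.0725 to 2.57 with a median of 0.851. The 9 of the full collection ran from 0.142 to 2.20 with a median of 0.783. The 14 titled SYBR Gold stained ran from 0 to 1.74 with a median of 1.08. Eosin in ethanol gave 0.298 to 2.15 and eosin in water 0.409 to 1.48, with 8 libraries each. These ranges overlap along most of their length.

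The 15 crystal violet libraries lay between 0.590 and 1.69 (median 0.915, SD 0.307). In 13 of the 15 the genome-wide share was inside the interval of chromosome 3. They were shallow, with 211 to 610 called autosomal windows and 9 to 56 on chromosome 3, so the intervals were wide. Of the 14 other 4NP libraries with as few called windows (217 to 605), ratios ran from 0 to 4.91 (SD 1.31, and 0.683 without the library at 4.91), 5 were under 0.5, and the share was outside the interval in 8. The difference in spread was seen after the values were known and was not tested.

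At 8 µl proteinase K, chromosome 3 was low in 4 of the 5 libraries. Their ratios were 0, 0.0415, 0.0605, 0.210 and 0.954, with 0, 8, 11, 83 and 740 called chromosome 3 windows. At 3 µl the 7 libraries ran from 0.0633 to 2.04 and at 4 µl from 0.0140 to 2.00, so the groups overlap. The mean of 0.253 at 8 µl was 0.572 below that at 3 µl (exact permutation p = 0.124, adjusted over 14 tests 0.217) and 0.567 below that at 4 µl (exact permutation p = 0.109, adjusted 0.217). Single libraries moved both differences by over 1.5 times, to 0.369 without replicate 7 at 3 µl and to 0.370 without replicate 1 at 4 µl. Over the whole titration, 27 libraries, the mean ratio was 0.711 (sign-flip permutation p = 0.0202, adjusted over the 19 autosomes 0.192).

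The 2 SYBR Gold libraries titled unstained had 3 and 2 called chromosome 3 windows, with ratios of 0.0375 and 0.135. The 14 titled stained averaged 1.08, and 1 of them, at 0, was lower than both. The difference of 0.992 gave an exact permutation p of 0.025 and 0.143 after adjustment, where the smallest p that this design allows is 0.00833. In the early freezing test all 3 libraries were low, with 0.0727 for the frozen-early one and 0.349 and 0.354 for the frozen-late ones, and these had 36, 174 and 116 called windows on chromosome 3. Both small-kit libraries were high, with 1.58 and 2.00. The other groups of 1 to 3 libraries were not tested. The highest ratio of all, 4.91, came from a library frozen after incubation in which 60 chromosome 3 windows (1.504%) were called against 0.306% of the others, and the other two libraries of that group had 0.654 and 0.902.

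The 7 group comparisons, each made for relative coverage and for run length, gave 14 tests. By permutation tests with Benjamini-Hochberg adjustment 0 of 14 passed, and 3 of 14 had an unadjusted p below 0.05. The third, beside both of SYBR Gold, was the run length difference between eosin in ethanol and in water, 0.0874 windows (permutation p = 0.0306, n = 8 each, adjusted 0.143). Both run length differences were taken against the pooled runs of the other autosomes. Against the unweighted mean of the other autosomes the permutation p was 0.0765 for eosin and 0.0476 for SYBR Gold (adjusted 0.289 for both). The SYBR Gold run length difference, 0.228 windows, was 0.0811 without 1 of the unstained libraries and 0.375 without the other (no test). In none of the 7 comparisons did the compared groups share a plate column, and an effect of plate column therefore cannot be told apart from that of the group.

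Runs of called windows on chromosome 3 were short. A run is an unbroken stretch of called windows, and mean run length was 1.45 windows over the 142 libraries with a run there. Pooled over libraries, 66.8% of 19509 runs were single windows, 18.1% were 2 windows long and 0.713% were 10 or longer, against 65.8%, 17.85% and 0.999% on the other autosomes. The longest run per library had a median of 4 windows (160 kb).

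The longest in a 4NP library, 40 windows or 1600 kb at chr3:140360001-141960000, came from an unstained library of the crystal violet experiment. A stained propidium iodide library followed with 39 windows at chr3:88280001-89840000 and held 3 of the 6 longest runs. That library had 17643 called autosomal windows, the most of any. The longest runs on the other autosomes were 27 to 79 windows.

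Whether runs on chromosome 3 were shorter depended on the reference. Against all runs of the other autosomes pooled, its mean run was 0.127 ± 0.0348 windows shorter (SE, n = 142, sign-flip permutation p = 4e-05, adjusted 0.000317). By that measure 16 of 19 autosomes were called (84.2%), each as shorter than the pool, and in simulated data without a difference 9 of 20 were called. Against the unweighted mean of the other 18 autosomes the difference was -0.0303 ± 0.0259 (longer in 64 of 142, permutation p = 0.246, adjusted 0.814). By this reference 0 of 19 autosomes passed (0%), and 1 of 19 had an unadjusted permutation p below 0.05.

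Co-segregation on chromosome 3 fell with distance as on the other autosomes. D′ is the linkage of the calls of 2 windows over libraries, scaled so that 1 is the highest value that their frequencies allow. At 40 kb the mean D′ was 0.434 ± 0.0338 (jackknife SE, 3877 pairs) on chromosome 3 and 0.461 ± 0.0246 on the others. At 400 kb it was 0.252 ± 0.0442 and 0.281 ± 0.0310. At 4 Mb it was -0.0391 ± 0.0660 and 0.000118 ± 0.0454. A pair of rarely called windows that shares no library takes the lowest value of D′, which pulls these means down. By the phi coefficient, the correlation of the calls, the means at 4 Mb were 0.136 and 0.140. Mean D′ was lower on chromosome 3 at all 10 distances, and at none by more than 2 SE of the difference. The differences were -0.0270 ± 0.0229 at 40 kb, -0.0285 ± 0.0347 at 400 kb and -0.0392 ± 0.0591 at 4 Mb. Of the 19 autosomes, 0% were beyond 2 SE at these 3 distances and 5.26% at 200 kb.

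**Figure D5:**
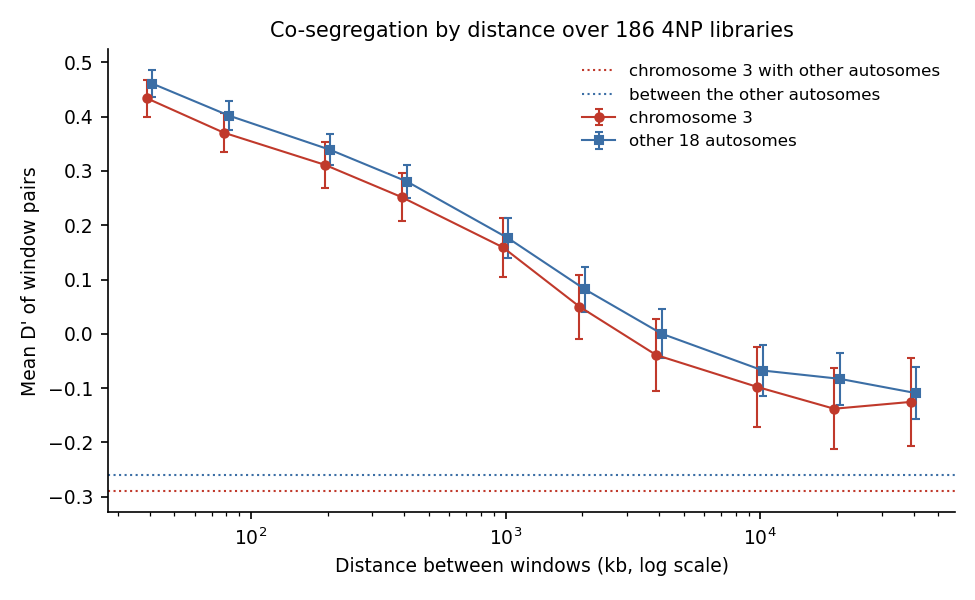
Mean D′ of window pairs against their distance (kb, log scale) over 186 4NP libraries, for chromosome 3 (red) and the other 18 autosomes (blue), with jackknife SE over libraries; dotted lines are pairs on different autosomes. The red line runs just under the blue one from 0.434 and 0.461 at 40 kb to -0.126 and -0.109 at 40 Mb, with overlapping error bars.

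Pairs of a chromosome 3 window and a window of another autosome had a mean D′ of -0.290, and pairs among the other autosomes -0.260. Taken above these levels, the linkage at 40 kb was 0.724 on chromosome 3 and 0.721 elsewhere, and at 4 Mb 0.251 and 0.260. At 40 Mb it was 0.165 and 0.150.

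By group, the same measure could be had for propidium iodide stained libraries (21), where D′ at 40 kb was 0.567 ± 0.107 on chromosome 3 and 0.583 ± 0.108 elsewhere, over 1762 chromosome 3 pairs. In stained and frozen libraries it was 0.368 ± 0.209 and 0.415 ± 0.187, over 692 pairs. In the full collection (28 pairs) and the libraries titled SYBR Gold stained (32 pairs) the differences were -0.117 ± 0.536 and -0.145 ± 0.244. The crystal violet libraries gave no chromosome 3 pair at 40 kb with both windows called in at least 2 libraries. At 40 kb the difference did not exceed 2 SE in any group that had a value there. At other distances the crystal violet libraries were below the other autosomes by more than 2 SE at 80 kb (-0.360 ± 0.177) and at 10 Mb (-0.484 ± 0.208), each from a single chromosome 3 pair. Both pairs had a D′ of -1, its lowest value, with a jackknife SE of 0. The SE given is thus that of the other autosomes alone, and no conclusion on chromosome 3 can be drawn. Linkage was not compared between groups.

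Controls set the background for chromosome 3. In 9 of the 11 water controls, 1 to 16 of its 3990 windows were called (0.0251% to 0.401%), 53 calls in all over 51 different windows. These were 6.32% of their autosomal calls, and the chromosome holds 6.45% of autosomal windows. The human DNA controls had 4 and 0 calls, and a count of 0 allows a share of up to 0.0752%.

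The other water controls had many calls. The SYBR Gold water control titled unstained had 2276 called windows on chromosome 3, 57.0% (Wilson 95% interval 55.5% to 58.6%) against 17.9% of the other autosomes, a ratio of 3.19. Of its 19 autosomes chromosome 3 was the highest, the lowest being chromosome 14 with 3.51%, and 22 of the 32 bins of 5 Mb were called in over 50% of their windows. The full collection had 1 such control, replicate 4, with 1206 called windows on chromosome 3 (30.2%, interval 28.8% to 31.7%, ratio 1.37), the highest but 3 of its autosomes. No 4NP library had as high a share of chromosome 3 called as the SYBR Gold water control, their highest being 31.98%. On chromosome 3, 9 windows were called in 3 or more water controls, and both controls with many calls were among them each time. Only 2 of the 51 windows called in controls with few calls were called in 2 or more of these. A count of 3 therefore nearly always takes both controls with many calls. The share of such windows on the other autosomes was not counted.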

How the data were processed

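The deposited table held calls, 1 for a 40 kb window that the authors called present in a library and 0 otherwise, with no counts. Per the study's methods the authors aligned reads with Bowtie2 (version 2.1 and build mm9 in the submitters' processing notes), removed duplicates with Samtools and called windows with GAMtools at 4 reads. Since calls hold no read depth, few calls in a library and few reads cannot be told apart. All 199 columns matched a sample by well name and 0 were left unmatched. Chromosome ends equalled those of NCBIM37, whose sequence and GENCODE M1 genes were used.

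The chromosome, gene lists and tests were chosen with earlier results of these data known. Ratios and run lengths were taken in 4NP libraries with at least 200 called autosomal windows (144 of 186) and tested with two-sided sign-flip permutation tests over libraries (100000 resamples, Benjamini-Hochberg over 19 autosomes, threshold 0.05). Groups were compared in 7 pairs by permutation tests of means, exact up to 5000000 splits, adjusted over 14 tests. The labels do not say that caps came from separate cultures, so p-values measure the spread between caps. D′ was averaged over pairs of windows called in at least 2 libraries, with jackknife SE and a limit of 2 SE. Intervals and floors (95%, 3 counts) cover counting error only. Named were the 5 windows called most, the 5 called least among those with no undetermined base, those in 3 or more water controls, the extreme 5 Mb bins, Sox2 and the extremes of 9 gene lists. The amylase and Hsd3b windows, repeated words, the split of chromosomes in the middle and the gene and GC classes were added after the values were seen. In simulated data 1 of 20 sets without a difference was called for relative coverage, and 19 of 20 at a true ratio of 0.8. For runs with the unweighted reference 2 of 20 were called without a difference. The simulations kept the real coverages, but their spread between libraries and the persistence of calls were set by hand. These were not fitted to the data, so the rates may not hold for the data. Alternatives were other minimums (50 or 1000 calls), GC weighting, log2 ratios, windows without water control calls, single experiments, plate rows as a block and leaving out libraries. Python 3.11.15, NumPy 2.4.6 and SciPy 1.17.1 were used.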

Additional observations from a re-analysis of the deposited data

Results flagged for a closer look

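Within groups of 4 to 10 libraries, the distance of the highest or lowest library to its nearest neighbour was set against the range of the group (Dixon's criterion). Of 24 group and measure pairs searched 4 stood out, where chance gives about 1 in 20. Replicate 3 at 8 µl proteinase K had a relative coverage of chromosome 3 of 0.954, while the other 4 libraries lay at 0 to 0.210. Replicate 14 of the full collection had a mean run on chromosome 3 that was 1.01 windows shorter than that of the other autosomes (a difference of -1.01), with the next library at -0.0775. Its chromosome 3 ratio was 0.142. The longest chromosome 3 run was 11 windows in replicate 3 of eosin in water, against at most 6 in the other libraries of that group, and 28 windows in replicate 5 of the full collection, against at most 6.

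The 2 water controls with many calls exceeded the other 9 on chromosome 3. They had 30.2% (full collection, replicate 4) and 57.0% (SYBR Gold, titled unstained) of its windows called, where the highest of the others had 0.401%.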

How the results depend on the processing

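Of 409 recomputed values with a test, 372 kept their direction and their side of the threshold, and of 21 recomputed differences in D′, which have no test, 20 moved by less than their SE. The mean ratio of chromosome 3, 0.989, crossed 1 in 6 settings, in none of which it passed the test: 1.03 with the other autosomes weighted to its GC classes, 1.005 without the early freezing experiment, 1.05 without the proteinase K titration, and 1.05, 1.11 and 1.12 in the eosin, full collection and propidium iodide experiments alone. The mean log2 ratio was -0.57 and passed, as it did for 17 of 19 autosomes; the cause was not tested. With the unweighted reference, chosen after seeing the data, the run length difference was -0.0303 and no longer passed. The excess of D′ at 40 kb over pairs on different autosomes differed by 0.00353, and at 400 kb by 0.00203 where D′ itself differed by -0.0285, a change of sign within 1 SE. Of the results added after seeing the data, gene windows differed by 0.491, 0.784 and 0.558 percentage points in the eosin, full collection and SYBR Gold experiments alone, and GC classes by 0.209, 1.37 and 0.579 there and by 0.0154 in the crystal violet experiment, none past the test.

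None of the group comparisons passed in any setting. Differences changed sign for 4 against 8 µl runs with a minimum of 50 calls (-0.0112), for propidium iodide coverage with a minimum of 1000 (-0.0117) and as log2 (-0.12), and for its runs with the unweighted reference (0.00663). Leaving out 1 library at a time, coverage differences ranged from -0.0202 to 0.339 (crystal violet against unstained), -0.00484 to 0.167 (propidium iodide against stained and frozen), -0.186 to 0.0782 (eosin in ethanol against water), 0.941 to 1.07 (SYBR Gold, stained libraries left out), -0.198 to 0.202 (3 against 4 µl), 0.369 to 0.747 (3 against 8 µl) and 0.370 to 0.742 (4 against 8 µl). Run differences ranged from 0.0482 to 0.982, -0.140 to -0.0123, 0.0646 to 0.101, 0.209 to 0.238 (stained libraries left out), 0.233 to 0.407, 0.204 to 0.549 and -0.130 to 0.215 windows in the same order. Without either unstained SYBR Gold library 1 is left, and the coverage difference, with no test, was 0.944 or 1.04 and the run difference 0.0811 or 0.375. A minimum of 1000 calls could not be fitted for crystal violet and SYBR Gold. Replicate numbers followed accession order and pair nothing. Comparing groups within plate rows, a replicate block added after seeing the data, changed no call over the 12 tests that could be made (SYBR Gold could not be fitted). The 3 against 8 µl coverage difference was 0.773 there (exact permutation p = 0.0625, the smallest that 5 rows allow, adjusted 0.300). Of 84 pairs of libraries in the same row, 23 had deviations over the 19 autosomes that correlated above 0.1, with a median of -0.0702, so rows did not pair the libraries. The number of calls per library limits single ratios: 1 call on chromosome 3 is 0.0251% of its windows.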
